A study of Mus musculus with 8 samples.

Results

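The 9 genes described here, chosen by name, are muscle genes known for a response to stretch, loading or growth, and most code for proteins of the sarcomere and its attachment sites. They are *Ankrd1*, *Ankrd2*, *Ankrd23*, *Csrp3*, *Xirp1*, *Xirp2*, *Nrap*, *Lmcd1* and *Mustn1*. Each was matched by its symbol to 1 of the 22206 probe sets of the array, so all 9 members were measured. Gene expression was measured in the gastrocnemius (GAS), a calf muscle, from C57/Bl6j mice that were all male and carried an age label of 14 weeks. The virus was given 3 weeks before sampling to mice described as about 10 weeks old, which does not add up to the labelled age. One leg received an adeno-associated virus (AAV) with a short hairpin RNA against the transcript of *Mytho* (AAV sh-RNA MYTHO). The opposite leg received an AAV with a scrambled hairpin (AAV sh-RNA scrmb), so both groups carried virus and hairpin, and there was no muscle without virus. Both hairpins were driven by the U6 promoter, which is not restricted to muscle fibres, and the RNA came from whole pieces of muscle. Each group held 4 arrays from the same 4 animals, called A to D here.

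In striated muscle, force is sensed where the sarcomere is anchored. The muscle ankyrin repeat proteins ANKRD1, ANKRD2 and ANKRD23 bind the spring region of the giant protein titin and can also enter the nucleus. CSRP3, also called muscle LIM protein, sits at the Z-disc, and XIRP1, XIRP2 and NRAP bind actin filaments at the ends of fibres and at sites of myofibril assembly. LMCD1 carries LIM domains and has been linked to calcineurin signalling, while MUSTN1 is a small protein of muscle and skeletal tissue that is linked to growth and regeneration. Several of these transcripts are known to be induced by stretch, overload or injury, and *Ankrd2* and *Csrp3* are known to be more abundant in slow than in fast fibres.

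The knockdown was checked first. *Mytho*, listed as D230025D16Rik, was at 14.2% of its scrmb signal in MYTHO muscle (limma adjusted p 0.00044), with a mean log2 signal of 8.31 ± 0.33 (SD, n = 4) against 11.12 ± 0.26 (SD, n = 4). It was lower in 4 of 4 animals, and the groups did not overlap. The arrays had median log2 signals of 6.39 to 6.47. Of 8 fast-fibre markers, 2 were at the ceiling of the scale, 19.93, on all arrays, and the mean of the other 6 lay between 19.50 and 19.69, close to that ceiling, so differences between arrays in these genes may be compressed. Slow-fibre markers differed between arrays. From animal A to D, the mean of 8 such genes was 13.70, 11.91, 11.94 and 11.61 in scrmb legs, while MYTHO legs gave 14.88, 14.43, 14.81 and 11.68. Thus scrmb A stood above the other scrmb arrays and MYTHO D below the other MYTHO arrays. In whole muscle, fewer fibres of a type and less RNA per fibre cannot be told apart.

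After adjustment over the whole array, none of the 9 genes had a limma p under 0.05, and 0.00901% of probe sets were called higher and 0.018% lower. A fit that took each animal as a block also gave 0 of 9, against 0.0045% of probe sets in the higher and 0.0045% in the lower direction. At the threshold of the study, at least a 2-fold change with an unadjusted p under 0.05, *Lmcd1* was the only member called. It was 2.06-fold higher in MYTHO muscle, and 0.261% of all probe sets were called higher and 1.25% lower by this rule. Counting an unadjusted p alone, 1 of 9 members was called higher and 0 lower, against 4.81% and 7.58% of all probe sets. The log2 fold changes of the 9 ran from -0.27 to 1.04 with a median of 0.20, and the median of all probe sets was -0.005. In total, 7 members had a positive and 2 a negative value. None of the 9 separated the groups without overlap, which 2.59% of all probe sets did in the higher and 3.87% in the lower direction. The legs of each animal were also compared directly, and by sign *Lmcd1* and *Mustn1* were higher in 4 of 4 animals, as were 8.94% of all probe sets. *Nrap* was lower in 4 of 4, as were 10.8%.

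**Figure D1:**
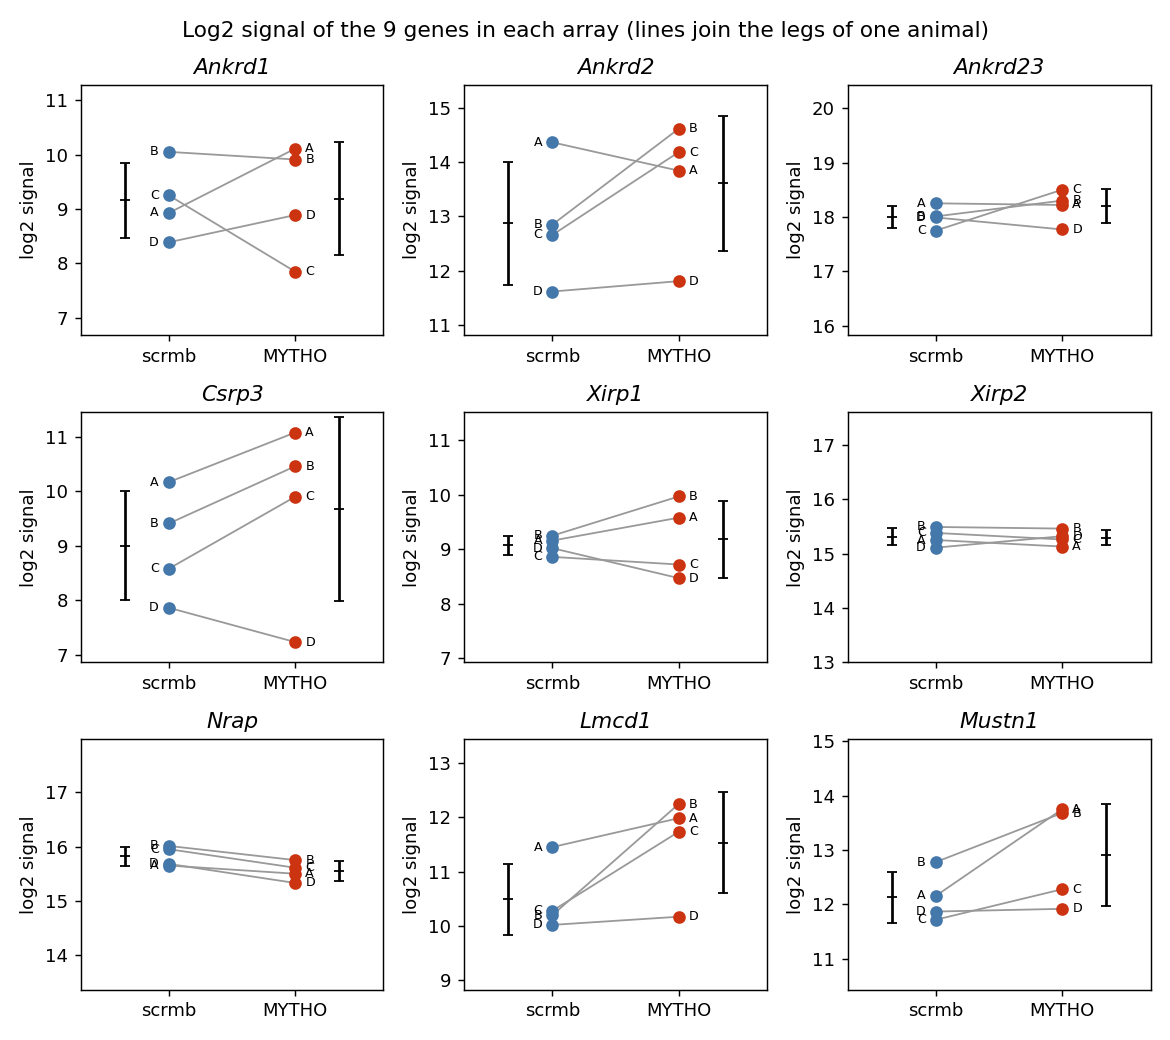
Log2 signal of each of the 9 genes in every array, with scrmb legs on the left of each panel and MYTHO legs on the right. Letters name the animals, grey lines join the legs of one animal, and black bars give the mean and SD of each group of 4 arrays. All panels span the same number of log2 units. *Lmcd1* and *Mustn1* were higher in the MYTHO leg of every animal, whereas *Xirp2* and *Nrap* spanned 0.38 and 0.68 log2 units over all arrays.

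The clearest difference was in *Lmcd1*, which codes for LIM and cysteine-rich domains 1. From animal A to D, scrmb legs had a log2 signal of 11.45, 10.20, 10.28 and 10.02, and MYTHO legs of 11.98, 12.24, 11.73 and 10.17. The MYTHO legs of animals A, B and C were above every scrmb array, but MYTHO D lay among the scrmb arrays. The mean was 11.53 ± 0.93 (SD, n = 4) in MYTHO against 10.49 ± 0.65 (SD, n = 4) in scrmb muscle, and the log2 fold change was 1.04 (standard error 0.43). The 95% confidence interval ran from 0.10 to 1.98, with an unadjusted limma p of 0.0327 and a limma adjusted p of 0.356. An exact two-sided permutation test over the arrays gave p = 0.114, where 0.0286 is the smallest value that 4 against 4 arrays allow. It exchanged arrays between animals and so did not use the pairing of the legs. Within animals, the differences were 0.53, 2.04, 1.45 and 0.15. With animal as a block, the unadjusted limma p was 0.00742 and the limma adjusted p 0.229. The call at the threshold of the study rested on single arrays. It was lost without scrmb B, C or D or MYTHO A, B or C, where the log2 fold change was between 0.81 and 0.98 and the limma p between 0.0706 and 0.102, and it was kept without scrmb A (1.36) or MYTHO D (1.5).

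*Mustn1*, which codes for musculoskeletal embryonic nuclear protein 1, had a log2 signal of 12.16, 12.78, 11.72 and 11.87 in scrmb legs from animal A to D, and of 13.75, 13.68, 12.28 and 11.92 in MYTHO legs. The means were 12.13 ± 0.47 (SD, n = 4) for scrmb and 12.91 ± 0.94 (SD, n = 4) for MYTHO. MYTHO A and B were above all scrmb arrays, while MYTHO C and D lay within their range. This gave a log2 fold change of 0.78 (standard error 0.40, 95% confidence interval from -0.11 to 1.66). The unadjusted limma p was 0.0797 without a block and 0.0140 with animal as a block, and the limma adjusted p was 0.469 and 0.271. Within animals, the MYTHO leg was higher by 1.59, 0.90, 0.56 and 0.05. The order of the animals differed from that of *Lmcd1*, since animal A had the largest difference in *Mustn1* and the third largest in *Lmcd1*. With the block, 2 members had an unadjusted limma p under 0.05 in the higher direction and 0 in the lower, against 4.94% and 7.66% of all probe sets.

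**Figure D2:**
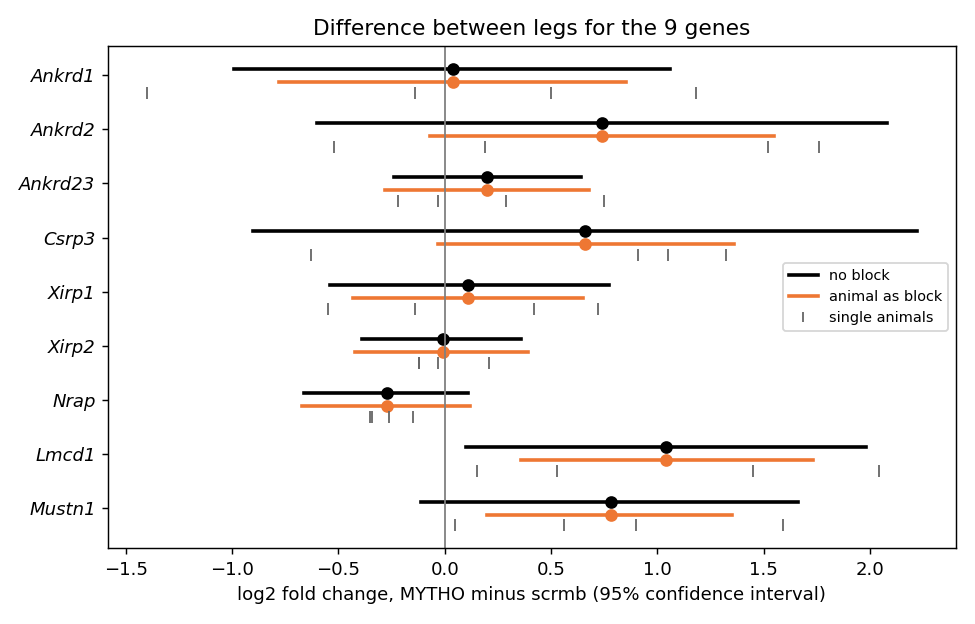
Log2 fold change of each of the 9 genes, MYTHO minus scrmb. Points and bars give the estimate and 95% confidence interval of limma without a block (black) and with animal as a block (orange), and ticks give the 4 single animals. The interval of *Lmcd1* lay above 0 in both fits and that of *Mustn1* with the block, while all other intervals included 0.

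*Csrp3*, which codes for muscle LIM protein, varied more between arrays than any other member. In scrmb legs the log2 signal was 10.17, 9.41, 8.58 and 7.86 from animal A to D, and in MYTHO legs 11.08, 10.46, 9.90 and 7.23. The animals kept the same order from A to D in both legs, and the highest and the lowest array both belonged to the MYTHO group. The log2 fold change was 0.66 (standard error 0.72, limma adjusted p 0.764), and the interval from -0.90 to 2.22 allows differences of more than 2-fold in the higher direction. The MYTHO leg was higher by 0.91, 1.05 and 1.32 in animals A, B and C, and lower in animal D, with a difference of -0.63. With animal as a block, the standard error was 0.31 and the unadjusted limma p 0.0596.

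Of the 3 ankyrin repeat genes, *Ankrd2* had the largest mean difference. From animal A to D its log2 signal was 14.36, 12.85, 12.66 and 11.62 for scrmb and 13.84, 14.61, 14.18 and 11.81 for MYTHO. Both legs of animal D were below all other arrays, and scrmb A was the second highest array. The mean difference was 0.74 (standard error 0.62, 95% confidence interval from -0.60 to 2.08, limma adjusted p 0.682). *Ankrd23*, which codes for the diabetes-related member of the family, had a log2 signal of 18.25, 18.01, 17.75 and 17.99 in scrmb and 18.22, 18.30, 18.50 and 17.77 in MYTHO arrays. Its log2 fold change was 0.20 (standard error 0.20, limma adjusted p 0.748). The MYTHO leg was higher in 2 of 4 animals. *Ankrd1*, which codes for cardiac ankyrin repeat protein, had a log2 signal of 8.93, 10.05, 9.25 and 8.39 in scrmb and 10.11, 9.91, 7.85 and 8.89 in MYTHO arrays. The mean difference was 0.04, but the legs of single animals differed by 1.18, -0.14, -1.40 and 0.50. The interval for *Ankrd1* ran from -0.99 to 1.06, so the data allow a difference of about 2-fold in either direction, and the sign of the mean turned without animal A (-0.35) or animal D (-0.12).

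None of the 3 genes of actin-bound anchoring proteins passed the test. *Nrap*, which codes for nebulin-related anchoring protein, had a log2 signal of 15.65, 16.01, 15.95 and 15.68 in scrmb and 15.50, 15.75, 15.61 and 15.33 in MYTHO arrays. It was lower in every MYTHO leg, with log2 differences of -0.15, -0.26, -0.34 and -0.35, and the mean was -0.27 (standard error 0.18, limma adjusted p 0.572). The interval from -0.66 to 0.11 does not reach a 2-fold change in either direction. *Xirp2*, a large actin-binding protein of the Xin family, had a log2 signal of 15.25, 15.49, 15.38 and 15.11 in scrmb and 15.13, 15.46, 15.26 and 15.32 in MYTHO arrays, and its log2 fold change of -0.01 had an interval from -0.39 to 0.36. Its relative *Xirp1* had a log2 signal of 9.16, 9.25, 8.86 and 9.02 in scrmb and 9.58, 9.97, 8.72 and 8.47 in MYTHO arrays. The scrmb arrays of *Xirp1* lay close together with an SD of 0.17, while the MYTHO arrays held both the 2 highest and the 2 lowest values, with an SD of 0.71. For *Xirp1*, the log2 fold change was 0.11 (standard error 0.30, limma adjusted p 0.918), and the MYTHO leg was higher in 2 of 4 animals.

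The members fell far apart in how much they varied between muscles of one group. The SD of the log2 signal between arrays of a group, pooled over both groups, had a median of 0.316 over all probe sets. It was 1.39 for *Csrp3*, 1.19 for *Ankrd2*, 0.88 for *Ankrd1*, 0.80 for *Lmcd1* and 0.75 for *Mustn1*. Of all probe sets, 99.9%, 99.8%, 99.5%, 99.2% and 98.9% had a smaller SD than these 5 genes. *Xirp1* was at 0.51, above 90.3% of probe sets. In contrast, *Ankrd23* was at 0.26, *Nrap* at 0.18 and *Xirp2* at 0.15, with 32%, 9.98% and 5.01% of probe sets below them. The 5 most variable members had the widest intervals for the difference between legs. In the fit without a block this had to be so, since its intervals are computed from the same SD.

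**Figure D3:**
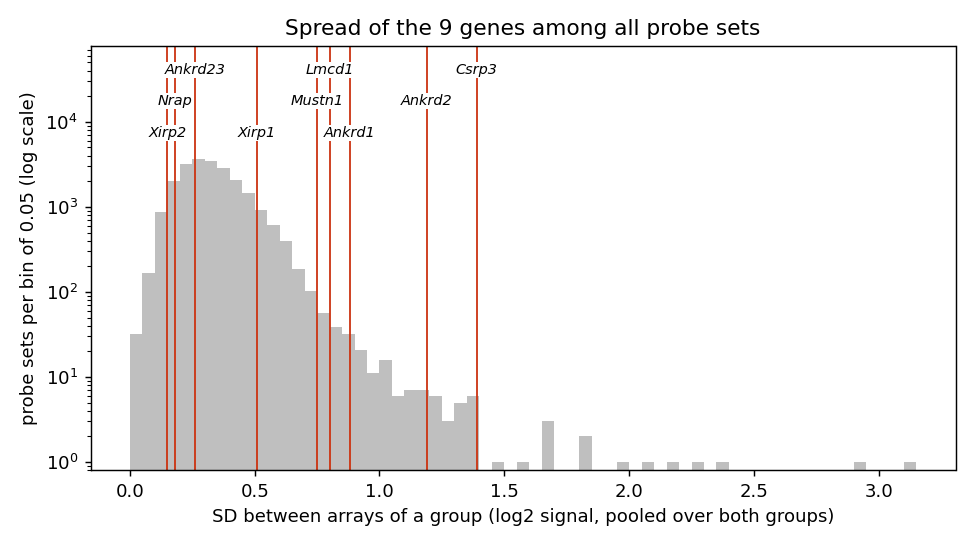
Distribution over all 22206 probe sets of the SD between arrays of a group (log2 signal, pooled over both groups), with the number of probe sets per bin on a log axis. Red lines mark the 9 genes, of which *Csrp3*, *Ankrd2*, *Ankrd1*, *Lmcd1* and *Mustn1* lay in the upper tail and *Xirp2* and *Nrap* in the lower part.

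For 4 of the 9 genes, the 4 highest arrays were the same as for the slow-fibre markers. The 4 arrays with the highest slow-fibre mean, from 13.70 to 14.88, were MYTHO A, B and C and scrmb A, and the other 4 lay between 11.61 and 11.94. *Lmcd1* was between 11.45 and 12.24 in the first set of arrays and between 10.02 and 10.28 in the second. *Ankrd2* was between 13.84 and 14.61 in the first and between 11.62 and 12.85 in the second. *Csrp3* was between 9.90 and 11.08 against 7.23 to 9.41, and *Ankrd23* between 18.22 and 18.50 against 17.75 to 18.01. Of all probe sets, 2.03% had the same 4 arrays highest. The other 5 members, *Ankrd1*, *Xirp1*, *Xirp2*, *Nrap* and *Mustn1*, had at least 1 other array among their 4 highest, and of these *Mustn1* shared 3 of the 4, MYTHO A, B and C, and *Xirp1* shared 3, MYTHO A and B and scrmb A. The slow-fibre mean was higher in the MYTHO leg by 1.18, 2.52 and 2.87 in animals A, B and C and by 0.08 in animal D. Of the 8 slow-fibre genes, 7 were called higher at the threshold of the study and 0 lower, against 0.261% and 1.25% of all probe sets, and none after adjustment, with an unadjusted limma p of 0.0187 for *Tnnc1*, slow troponin C, and 0.0246 for *Myh7*, slow myosin heavy chain. The part of the slow-fibre genes in the differences of these 4 members was not tested.

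Animals A and D, whose arrays stood apart in slow-fibre genes, were left out in turn after the data had been seen. The *Lmcd1* difference was smallest in animal D, so its mean had to be larger without that animal, and the values that follow are a description. Without both legs of animal D, 3 members were past the threshold of the study in the higher direction and 0 in the lower, against 0.653% and 2.41% of all probe sets in the same fit. *Lmcd1* was then at 1.34 on the log2 scale (unadjusted limma p 0.00266, adjusted 0.122). *Csrp3* was at 1.09 and *Mustn1* at 1.02, with an unadjusted limma p of 0.0249 and 0.0335. Without the MYTHO array of animal D alone, 4 were called higher and 0 lower, against 0.468% and 1.51% of all probe sets, with *Ankrd2* at 1.34 as well, and *Csrp3* at 1.48. That fit kept scrmb D, the lowest scrmb array for *Ankrd2*, *Csrp3* and *Lmcd1*. Without both legs of animal D, *Ankrd2* was at 0.92 and was not called (unadjusted limma p 0.0534). Without both legs of animal A, *Lmcd1* was the only member called, at 1.21, against 0.594% of all probe sets called higher and 1.72% lower, while *Mustn1* was at 0.50 and *Csrp3* at 0.58.

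**Figure D4:**
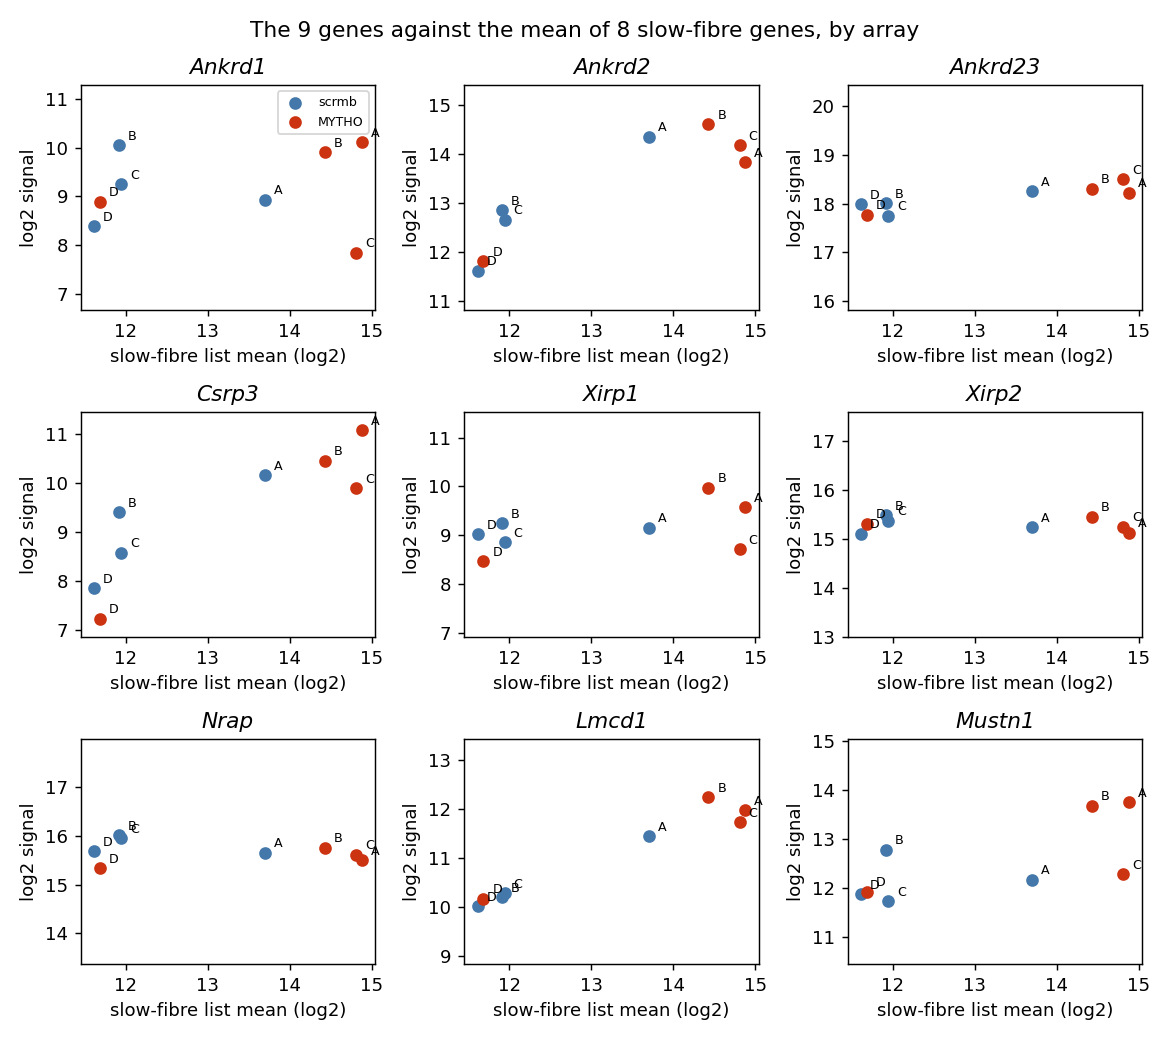
Log2 signal of each of the 9 genes against the mean log2 signal of 8 slow-fibre genes, with 1 point per array, blue for scrmb and red for MYTHO, and letters for animals. *Lmcd1*, *Ankrd2*, *Ankrd23* and *Csrp3* were higher in all 4 arrays at a slow-fibre mean of 13.70 or above than in the other 4, and *Ankrd1*, *Xirp2* and *Nrap* showed no such order.

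The promoters of 4 of the 5 most variable members are shown to set their sequences beside these patterns: *Lmcd1* and *Csrp3*, whose 4 highest arrays were those of the slow-fibre genes, *Mustn1*, which shared 3 of these 4 arrays, and *Ankrd1*, whose highest arrays were of both kinds. On build GRCm38.p6, *Lmcd1* lies on chromosome 6 from 112273758 to 112330423, *Csrp3* on chromosome 7 from 48830398 to 48848051, *Ankrd1* on chromosome 19 from 36111965 to 36119844 and *Mustn1* on chromosome 14 from 30879257 to 30881610. Each sequence is the stretch of 250 bases before the gene start from RefSeq on the same build, written 5′ to 3′ on the strand of the gene. The windows are chr6:112273508-112273757 on the plus strand, chr7:48848052-48848301 on the minus strand, chr19:36119845-36120094 on the minus strand and chr14:30879007-30879256 on the plus strand. Capitals mark matches to the CArG box, the motif of serum response factor, to CATTCC, the MCAT motif bound by TEAD factors, or to the MEF2 box, on either strand.
Lmcd1: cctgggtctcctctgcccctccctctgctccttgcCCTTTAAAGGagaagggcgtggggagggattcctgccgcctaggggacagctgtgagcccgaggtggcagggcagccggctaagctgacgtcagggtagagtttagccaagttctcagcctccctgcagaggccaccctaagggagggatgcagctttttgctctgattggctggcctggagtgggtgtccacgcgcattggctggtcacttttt
Csrp3: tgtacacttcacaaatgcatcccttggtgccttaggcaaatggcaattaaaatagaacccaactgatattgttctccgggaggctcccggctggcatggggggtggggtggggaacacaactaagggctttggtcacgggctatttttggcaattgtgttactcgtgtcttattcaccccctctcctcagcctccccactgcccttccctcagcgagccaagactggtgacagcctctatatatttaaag
Ankrd1: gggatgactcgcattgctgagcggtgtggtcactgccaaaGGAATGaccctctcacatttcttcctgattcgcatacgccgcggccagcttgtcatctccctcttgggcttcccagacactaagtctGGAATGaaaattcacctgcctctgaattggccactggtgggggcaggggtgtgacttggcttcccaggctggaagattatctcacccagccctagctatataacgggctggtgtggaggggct
Mustn1: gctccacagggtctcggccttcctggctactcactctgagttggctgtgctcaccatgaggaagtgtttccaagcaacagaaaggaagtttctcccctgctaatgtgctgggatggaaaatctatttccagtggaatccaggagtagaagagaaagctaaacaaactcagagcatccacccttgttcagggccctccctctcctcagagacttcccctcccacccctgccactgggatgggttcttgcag
*Lmcd1* held 1 CArG box that begins 215 bases before the start, a motif found in 1.47% of all 32851 promoter windows of this length. *Ankrd1* held 2 MCAT motifs, in both cases as the reverse complement, at 210 and 123 bases before the start. This motif was found in 12.6% of all windows. The *Csrp3* and *Mustn1* windows shown held none of the 3 motifs. Of the 8 members with a window in the table (all but *Xirp1*), 1 had a CArG box, 2 had an MCAT motif, *Ankrd1* and a second window of *Ankrd23*, and 1, *Xirp2*, had a MEF2 box, which 2.92% of all windows held. An E-box (CANNTG) was found for 7 of the 8 and in 66.2% of all windows. These member counts take a match in any window of a gene, and *Ankrd23* and *Csrp3* have 2 windows each. The shares count single windows, so the 2 measures differ. These are matches of letters and carry no information on binding in these muscles.

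Genes around the 9 members were then examined from 8 lists of partners and relatives, with 170 distinct genes. None had a limma adjusted p under 0.05. At an unadjusted p under 0.05, 10 were higher and 5 lower, or 5.88% and 2.94%, against 4.81% and 7.58% of all probe sets. In both directions together, the count of 15 was 8.82% of the lists against 12.4% of all probe sets. It was 23 with animal as a block, or 13.5% against 12.6% of all probe sets in the same fit. It was 24 without both legs of animal D, or 14.1% against 13.5%, and 24 without scrmb D, or 14.1% against 14.4%. It was 8 without scrmb C, or 4.71% against 9.5%, and 6 without MYTHO B, or 3.53% against 9.84%. Among 12 partners of titin, the median log2 fold change was 0.16. *Cryab*, a small heat shock protein that protects the titin spring, was higher by 0.83 (limma adjusted p 0.357), and *Smyd2*, a methyltransferase found at the sarcomere, was lower, with a log2 fold change of -0.60 (limma adjusted p 0.325). The titin gene *Ttn* itself was at -0.06 (standard error 0.16).

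Among 36 partners at the Z-disc and fibre ends, 3 had an unadjusted limma p under 0.05 in the higher and 1 in the lower direction, with a median log2 fold change of 0.00. *Myoz2*, the slow-fibre calsarcin, was higher by 1.22, *Bag3*, a co-chaperone that clears damaged filamin, by 1.15 and *Actn2*, a Z-disc actinin, by 0.68, and the limma adjusted p was between 0.356 and 0.394. For *Actn2*, the difference was 1.62 and 1.06 in animals B and C and 0.13 and -0.11 in animals A and D. *Bag3* was higher in 3 of 4 animals, by up to 2.87 in animal C. *Ctnnb1*, which codes for beta-catenin and shares its probe set with a microRNA, was lower, with a log2 fold change of -0.43, no overlap between groups and a limma adjusted p of 0.356.

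Of 17 genes of the YAP and TEAD pathway, 1 was higher and 1 lower at an unadjusted limma p under 0.05, with a median log2 fold change of 0.19. These were the TEAD cofactors *Vgll2*, at 1.46 (limma adjusted p 0.277), and *Vgll3*, at -0.57 (0.311). *Vgll2* was higher by 2.73 and 2.95 in animals B and C but differed by -0.21 and 0.38 in animals A and D. Of 15 genes of the SRF pathway that were not saturated, 1 was called at this p, with a list median of 0.20. This was *Actc1*, cardiac alpha-actin, which had a log2 fold change of 1.57 with no overlap between groups, at 1.59, 1.95, 1.53 and 1.22 in animals A to D (limma adjusted p 0.112). Of the 15 genes called in these lists, it alone differed by more than 1 in animal D.

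The remaining lists hold relatives and further partners, and genes are counted as higher or lower in them at an unadjusted limma p under 0.05. Of 17 calcineurin partners, *Nfatc3*, a transcription factor activated by calcineurin, was lower, with a log2 fold change of -0.48, no overlap between groups and a limma adjusted p of 0.261, and the list median was -0.01. *Rcan1*, an inhibitor and target of calcineurin, was higher in 4 of 4 animals, with a mean log2 difference of 0.70, and its unadjusted limma p was 0.0999 without a block and 0.00861 with animal as a block (limma adjusted p 0.235). Of 22 relatives with LIM domains or nebulin repeats, *Lims2*, an adaptor of integrin-linked kinase, was higher by 0.67 without overlap (limma adjusted p 0.238), and the median was 0.23. Of 43 other genes named *Ankrd*, only *Ankrd26* was called, with a log2 fold change of -0.56 (limma adjusted p 0.338), and the median was 0.03. Of 14 genes from the setting of *Mustn1*, 3 were higher, with a list median of 0.09. These were *Myog*, the muscle regulator myogenin, at 0.65, *Sox9*, a cartilage regulator, at 0.64, and *Itih4*, a neighbour of *Mustn1*, at 0.48, and the limma adjusted p was between 0.307 and 0.356.

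**Figure D5:**
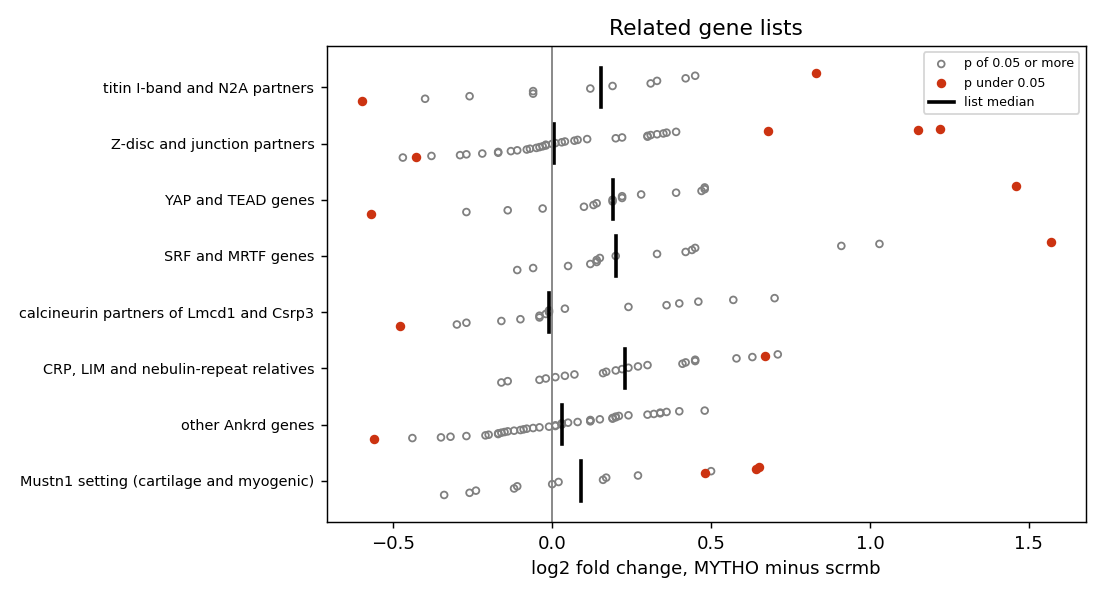
Log2 fold change, MYTHO minus scrmb, of each gene in the 8 lists of partners and relatives. Filled red points had an unadjusted limma p under 0.05, open points did not, and black bars give the list medians, which lay between -0.01 and 0.23.

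Markers of other states and cells were read beside these values. Of 8 markers of regenerating fibres, *Myh8* was at the ceiling on all arrays of both groups, so it could show neither its level nor a difference. Of the other 7, 2 had an unadjusted limma p under 0.05 in the higher direction, against 4.81% of all probe sets. These were *Myog* and *Chrna1*, a subunit of the acetylcholine receptor, which was higher by 0.91 without overlap. The mean of this list was between 5.87 and 6.0 in scrmb and between 6.01 and 7.04 in MYTHO muscle. It was higher in the MYTHO leg by 1.12, 0.44, 0.27 and 0.12 in animals A to D, the same order of animals as for *Mustn1*. Of 8 tendon and junction markers, 6 had a negative log2 fold change and 1, *Kera* at -0.96, had an unadjusted limma p under 0.05, against 7.58% of all probe sets in the lower direction, and the list mean was between 8.03 and 9.37 in scrmb and between 7.96 and 8.78 in MYTHO. Of 5 endothelial markers, 5 had a positive log2 fold change and 2 had an unadjusted limma p under 0.05 in the higher direction, against 4.81% of all probe sets. The list mean was between 9.53 and 10.10 in scrmb and between 10.20 and 10.40 in MYTHO. In the lists of macrophages, fibroblasts, smooth muscle, cardiac muscle, blood, adipocytes and Schwann cells, the fibroblast gene *Dcn* was the only one with an unadjusted limma p under 0.05, at -0.59, and the list medians lay between -0.26 and 0.26. Single animals differed more. The adipocyte mean differed between legs by 2.43, -1.93, -0.95 and 0.66 in animals A to D. The blood mean differed by -0.62, 0.09, 0.54 and 0.99, and it was highest in MYTHO D, at 11.05, against 9.13 to 10.35 in the scrmb arrays. The part of these lists in the differences of the 9 genes was not tested.

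Finally, the genes with the most similar pattern over the 8 arrays were sought among all probe sets of a single gene, by the Pearson correlation of log2 signals. The 8 arrays came from 4 animals and differed in slow-fibre genes, so these values describe the arrays and were not tested. The gene nearest to *Lmcd1* was *Tnnc1* with a correlation of 0.982. The nearest to *Ankrd2* was *Fhl1*, which codes for a LIM protein that binds titin, at 0.986, and the nearest to *Ankrd23* was *Rab14* at 0.984. *Kdm3a* was nearest to *Csrp3* (0.978), *Rasgrf2* to *Mustn1* (0.957), *Thap2* to *Ankrd1* (0.975), *Pex3* to *Xirp1* (0.974), *Ttll5* to *Xirp2* (0.962) and *Gykl1* to *Nrap* (0.992). The 5 genes nearest to the mean of the 9 standardised members were *Tmem116*, *S1pr1*, *Exoc6*, B430202K04Rik and *Cyth3*, with correlations from 0.944 to 0.980. Their own log2 fold changes were between 0.13 and 0.36.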

How the data were processed

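Total RNA of GAS muscle was hybridised to Clariom S Mouse arrays. The authors deposited log2 signals from the Transcriptome Analysis Console version 4.0.1 with default settings. Per the file headers, these are gene-level values of SST-RMA, a background correction, quantile normalization and median polish, with annotation release 36 on mm10. The submitters' processing notes also name Expression Console and RMA. The log2 signals run from 2.38 to a ceiling of 19.93, where 18 probe sets sat on all 8 arrays. The deposited table also holds group averages, fold changes, p-values and false discovery rates of the authors' own comparison, which were not used. Of 22206 rows, 836 name several genes.

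All log2 signals were fitted with limma version 3.58.1 (lmFit and eBayes, default settings) in R version 4.3.3, on MYTHO minus scrmb without a block, as the methods of the study state no pairing term. Tests were two-sided and adjusted by Benjamini-Hochberg over all probe sets, and the fit was tested on simulated data. The simulated arrays were independent, without paired legs or variation shared between genes, so that test does not cover these features of the data. Column names give the group and an animal number that occurs once per group, and the study injected both viruses into opposite legs of one animal, so same-numbered arrays are paired. Deviations from the group means correlated at 0.00266, -0.00145, 0.135 and 0.0871 across probe sets for animals A to D. The members and lists were chosen with earlier results of these data known. By rule, the text names the 9 members, *Mytho*, up to 5 genes per list with the largest change at an unadjusted p under 0.05, and the genes nearest in pattern. *Ttn*, *Myh7*, *Myh8*, *Chrna1*, *Kera*, *Dcn*, *Rcan1*, *Cyr61* and *Ctgf* were added after their values were seen. Signals on an array cannot be compared between genes. The number of arrays, 4 per group, limits the precision. Gene starts and promoters came from RefSeq on GRCm38.p6, the assembly behind mm10.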

Additional observations from a re-analysis of the deposited data

Results flagged for a closer look

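Groups of 4 arrays were screened for 1 array apart from the others, by its gap to the nearest array as a share of the range of the group. Of 44 groups, covering the 9 members, *Mytho* and 12 lists of markers, 4 were over Dixon's 95% critical value, where chance gives about 1 in 20. None of the 9 members was among them. The slow-fibre list mean was 13.70 in scrmb A against 11.61 to 11.94 in the other scrmb arrays (gap share 0.842), and 11.68 in MYTHO D against 14.43 to 14.88 in the other MYTHO arrays (0.859). The fast-fibre list mean was 19.66 in scrmb D against 19.57 to 19.58 (0.889), close to the ceiling of the scale. *Mytho* was at 8.80 in MYTHO C against 8.08 to 8.20 (0.833).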

How the results depend on the processing

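No member reached a limma adjusted p under 0.05 under any of the 17 alternatives. The lowest adjusted p of a member was 0.122, for *Lmcd1* without both legs of animal D, the fits without an animal having been added after the data were seen. For *Mytho*, every fit kept the call, with log2 fold changes of -2.98 to -2.74 when 1 array was left out and -2.81 to -2.69 in the others. Members past the threshold of the study numbered 1, against 0 with trend and robust (*Lmcd1* at an unadjusted limma p of 0.0570), 3 without both legs of animal D and 0 to 4 without single arrays. Members with an unadjusted p under 0.05 numbered 1, against 0 with trend and robust, 2 with the replicate block by animal, 3 without both legs of animal D and 0 to 4 without single arrays, with 4 in both counts without MYTHO D. The block changed no other call of a member. Of genes in the related lists, 15 passed this p, against 23 with the block, 24 without both legs of animal D and 6 to 24 without single arrays (8 without scrmb C, 24 without scrmb D and 6 without MYTHO B).

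The median of the 9 log2 fold changes was 0.11 to 0.48 when 1 array was left out and 0.17 to 0.34 in the other fits. Among the members, signs turned for *Ankrd1*, *Xirp1* and *Xirp2*. *Xirp2* was at 0.03 after median centring and 0.02 without both legs of animal A, and *Ankrd1* at -0.35 without both legs of animal A and -0.12 without those of animal D. Without single arrays, *Ankrd1* ran from -0.27 to 0.48, *Xirp1* from -0.15 to 0.35 and *Xirp2* from -0.08 to 0.05. *Lmcd1* ran from 0.81 to 1.5, *Mustn1* from 0.49 to 1.1, *Csrp3* from 0.19 to 1.48, *Ankrd2* from 0.32 to 1.34, *Ankrd23* from 0.10 to 0.34 and *Nrap* from -0.34 to -0.20. The cause was not tested. The fit with 1 probe set per gene symbol was run and is among the 17, but values from a further probe set of a member could not be had, since each member has 1.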
